A study of Mus musculus with 23 samples.

Results

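The clustered protocadherins are cell-surface adhesion proteins of neurons encoded by 3 gene clusters that lie in tandem on mouse chromosome 18. The 58 rows of the count table with a Pcdha, Pcdhac, Pcdhb, Pcdhga, Pcdhgb or Pcdhgc symbol were taken by name, out of 55335 gene rows, and comprised 14 members of the alpha, 22 of the beta and 22 of the gamma cluster. They were measured by bulk RNA-seq in the hippocampus of 23 female mice in 6 groups. WT-8M (n = 4) and 3xTg-8M (n = 4) were untreated at 8 months of age. The other 4 groups were 10 months old after a pump had infused the lateral ventricle for 28 days, with vehicle in WT-D (n = 4) and 3xTg-D (n = 4) and with the stearoyl-CoA desaturase (SCD) inhibitor ab142089 (SCDi) at 80 µM in WT-S (n = 3) and 3xTg-S (n = 4). Vehicle was artificial cerebrospinal fluid with 0.8% DMSO, which the inhibitor pumps held as well. The 3xTg mouse is a model of Alzheimer's disease whose engineered alleles include mutant human APP and tau transgenes, driven in neurons by a Thy1.2 element. The WT mice were labelled C57BL/6J x 129S1, so both strains descend from C57BL/6 and 129 mice, and the 3xTg line is kept apart from its controls. The engineered alleles and any other genetic difference between the lines cannot be told apart here.

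Each alpha or gamma member has a promoter and a large variable exon of its own, spliced to constant exons that all members of that cluster share, whereas each beta gene is a single coding exon. In most neurons a few of the alternate promoters are chosen at random, which needs the insulator protein CTCF and cohesin and is opposed by DNA methylation, so that neighbouring neurons bear different sets of isoforms. The 5 C-type members, Pcdhac1, Pcdhac2, Pcdhgc3, Pcdhgc4 and Pcdhgc5, lie at the ends of the alpha and gamma clusters and are used more uniformly. Isoforms bind like isoforms on other membranes, and this is known for dendritic self-avoidance, axon spacing, synapse formation and the survival of interneurons. Whole hippocampus gives an average over cells, so fewer cells that use a promoter and less RNA from each of them cannot be told apart.

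Library totals ran from 12802267 to 36686413 gene counts, with WT-8M replicates 1 and 4 and 3xTg-8M replicate 1 the deepest, and 7103 to 22039 counts per library fell on the members. All 10 neuron markers were expressed. The libraries 3xTg-8M replicate 4 and 3xTg-S replicate 2 stood apart: the slope of log2 level on log2 transcript length, relative to the other libraries, was -0.145 and -0.114 in them and between -0.0446 and 0.064 in the other 21. Counts of called members are given with and without these libraries.

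In GRCm38 coordinates the alpha members spanned chr18:36930184-37187661, the beta members chr18:37264938-37524479 and the gamma members chr18:37661793-37841873. Reads on the constant exons belong to several genes at once and were not assigned, so a member's count reflects its own bases. These made up a median of 46.5% of the annotated exon bases in the alpha cluster, 55.3% in the gamma cluster and 100% in the beta cluster. Identical stretches were few, since a median of 8.44% of 75-base windows of an alpha member also occurred in another gene, against 0.945% for beta and 0% for gamma members. Pcdha4 kept only 494 bases of its own beside an overlapping readthrough gene, and its 47 counts over all libraries make its level uncertain. The symbol Pcdha11 stood on 2 rows, which were kept apart. All own bases of Pcdhga10 lie opposite the gene Gm26672 on the other strand, yet Pcdhga10 received 3499 counts and Gm26672 received 579, so reads were assigned by strand.

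Levels were compared between members as CPM (counts scaled to the size of the library) per kilobase of own bases, averaged over the 23 libraries. The C-type members Pcdhgc5, Pcdhgc3 and Pcdhac2 stood highest, at 16.8, 15.4 and 10.2 CPM per kb, with ranges over libraries of 12.5 to 19.6, 11 to 18.3 and 7.04 to 12.2. These ranges overlapped, but within a library Pcdhgc3 was above Pcdhac2 in 23 of 23 libraries and Pcdhgc5 above Pcdhgc3 in 20 of 23. Each of these 3 was above the remaining members' averages, of which Pcdhb9 was next at 6.39 CPM per kb, then Pcdhga4 at 5.78. The other C-type members were ordinary in level, Pcdhgc4 at 2.68 and Pcdhac1 at 1.19 CPM per kb. The alternate gamma A members had a median of 4.39, gamma B 2.62, beta 2.07 and the alternate alpha members 1.07 CPM per kb, with Pcdha12 the highest of the alternate alphas at 3.31. Pcdhb7 was second among the betas at 4.18. The lowest were Pcdha8 at 0.125 and Pcdha4 at 0.239 CPM per kb, which failed the filter on low counts in all 7 comparisons, so 56 members were tested. Of all member CPM, 53.6% came from the gamma, 35.2% from the beta and 11.2% from the alpha cluster, and 28.7% from the 5 C-type genes.

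**Figure D1:**
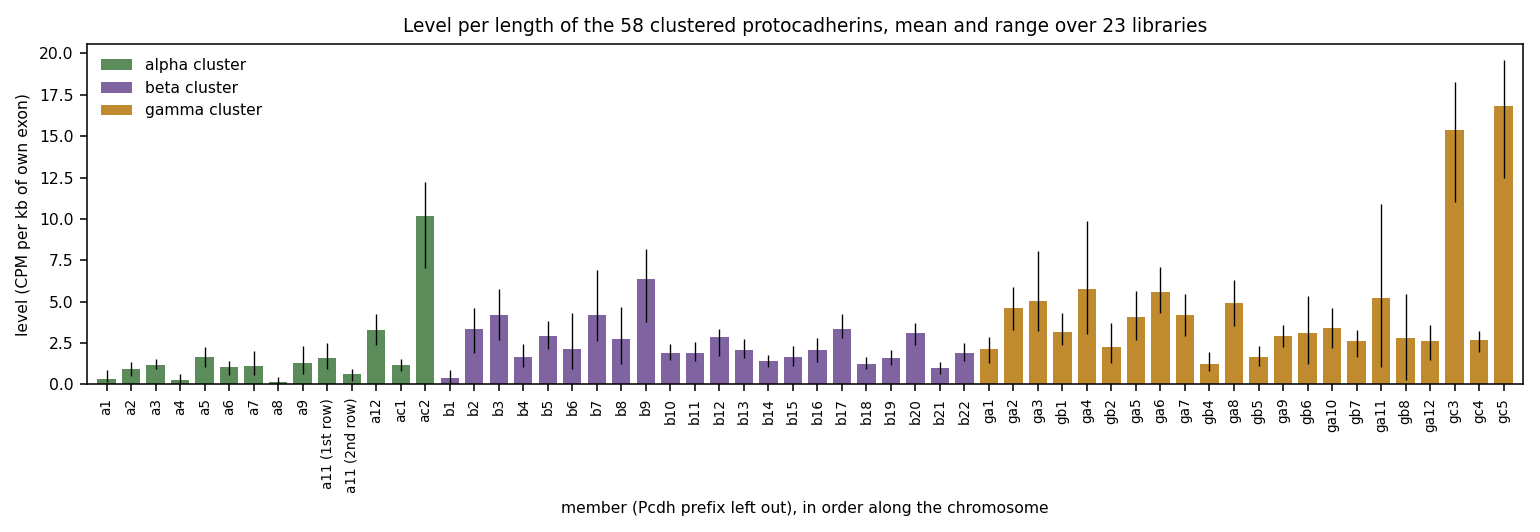
Level of each of the 58 members in CPM per kb of own exon bases (vertical axis), ordered along the chromosome; bars are means over 23 libraries and lines run from the lowest to the highest library. Pcdhgc5, Pcdhgc3 and Pcdhac2 stand above the rest, and Pcdhga11 and Pcdhgb8 have wide ranges for their level.

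Which members differed between 3xTg and WT mice was asked in untreated, vehicle-infused and inhibitor-infused animals. A member was called when edgeR's quasi-likelihood test, adjusted over all genes tested, gave p under 0.05. In 3xTg-8M against WT-8M, 5 of 56 members (8.93%) were called, 4 lower and 1 higher, beside 2.58% of 15483 genes (1.53% lower, 1.05% higher). In 3xTg-D against WT-D, 7 of 56 (12.5%) were called, 4 lower and 3 higher, beside 1.39% of 15528 genes (0.753% lower, 0.638% higher). In 3xTg-S against WT-S, 6 of 56 (10.7%) were called and all 6 were lower, beside 1.32% of 15664 genes (0.702% lower, 0.613% higher). In 3xTg-S against WT-D, which shares WT-D and 3xTg-S with the preceding comparisons, 10 of 56 (17.9%) were called, 8 lower and 2 higher, beside 2.29% of 15567 genes (1.1% lower, 1.19% higher).

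Every one of these shares was above that of all genes. The members' median log2 fold change was -0.17 at 8 months, -0.07 between the vehicle groups and -0.16 between the inhibitor groups, whereas the median of all genes lay between -0.003 and 0.006. The 10 neuron markers had medians of -0.05, -0.09 and -0.07 in the same order. Without 3xTg-8M replicate 4 the first comparison still had 5 called members and a median of -0.10, and without 3xTg-S replicate 2 the third still had 6 and a median of -0.08. Between vehicle groups the median ran from -0.13 without WT-D replicate 3 to -0.03 without WT-D replicate 1. The count in 3xTg-S against WT-D dropped to 6 without 3xTg-S replicate 2 or replicate 4 or WT-D replicate 1, to 5 without WT-D replicate 3 and to 3 without 3xTg-S replicate 1. The count at 8 months rose to 8 without WT-8M replicate 1, and the count between vehicle groups dropped to 3 without 3xTg-D replicate 2.

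The first 3 of these comparisons have no library in common. Of the 13 members called in any of the 4 comparisons of strains, 2 were called in all 3 separate comparisons (Pcdhga11 and Pcdhgb6), 3 in 2 of them (Pcdha9, Pcdhb6 and Pcdhga4), 6 in 1 and 2 in 3xTg-S against WT-D alone. The log2 fold changes of the 56 members had the same sign in 47 between the 8-month and vehicle comparisons (83.9%), 49 between the 8-month and inhibitor comparisons (87.5%) and 44 between the vehicle and inhibitor comparisons (78.6%). Among all genes tested in both, these shares were 54.7%, 60.2% and 65.7%. Pearson's r across members, as a description over genes that are not independent, was 0.85, 0.87 and 0.73, against 0.62, 0.62 and 0.75 across all genes. Spearman's rho, which uses ranks, was 0.68, 0.78 and 0.60 across members, against 0.25, 0.34 and 0.44 across all genes. In all 3 comparisons 32 members were lower and 10 higher in 3xTg, and 14 were mixed. Taken one by one, the comparisons had 66.1%, 67.9% and 71.4% of members lower, beside 48.7%, 51% and 48.8% of all genes.

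**Figure D2:**
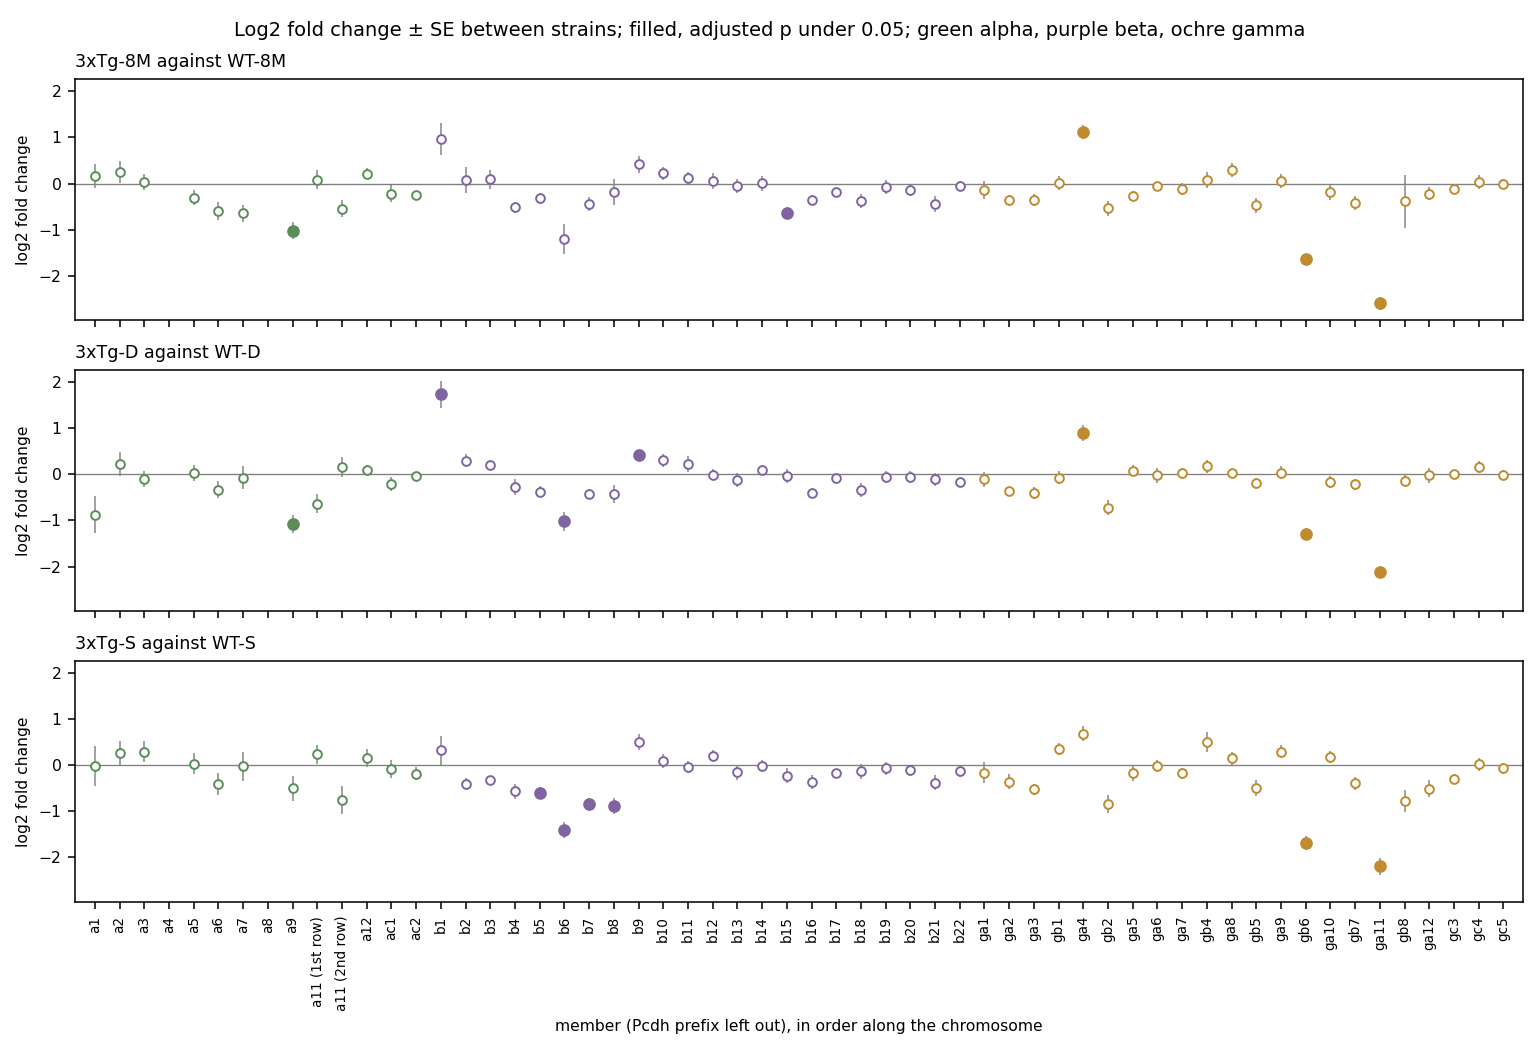
Log2 fold change of 3xTg over WT (vertical axis, with SE) for each tested member in order along the chromosome, one panel for each comparison without shared libraries; filled points had an adjusted p under 0.05. Pcdhga11 and Pcdhgb6 are the lowest points in every panel, and none of their neighbours Pcdhga9, Pcdhga10, Pcdhgb7 and Pcdhgb8, which lie between -0.78 and 0.29, is filled.

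Pcdhga11, an alternate member of the gamma A subfamily (chr18:37755731-37841873, its shared 3′ exons included), had the largest difference in every comparison of strains. At 8 months it held 23.1, 28.8, 20.6 and 24.2 CPM in the WT-8M libraries and 4.2, 4.56, 3.71 and 3.27 CPM in the 3xTg-8M libraries. With vehicle, WT-D held 26.1, 25.7, 22 and 24.4 CPM, whereas 3xTg-D held 5.6, 5.65, 5.92 and 5.17 CPM. The inhibitor groups held 22.5, 22.2 and 20.9 CPM in WT-S and 2.76, 4.8, 6.3 and 5.45 CPM in 3xTg-S. The lowest of 11 WT libraries was thus far above the highest of 12 3xTg libraries, whatever the age or infusion. In log2 units Pcdhga11 fell by 2.60 ± 0.13 (SE; 6.08-fold lower, edgeR adjusted p = 5.34e-07) at 8 months, by 2.13 ± 0.09 (4.37-fold, adjusted p = 1.75e-07) between vehicle groups and by 2.19 ± 0.19 (4.57-fold, adjusted p = 6.4e-05) between inhibitor groups. It was called under each of the 12 or 13 alternative settings of every comparison. Gm26672, which overlaps part of its exon on the opposite strand and is named here for its place, had log2 differences of -0.88, -0.96 and -0.92, with adjusted p of 0.162, 0.163 and 0.196.

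Pcdhgb6, a gamma B member placed 3 genes before Pcdhga11 (chr18:37742094-37841873), followed the same division. The WT-8M libraries held 12.1, 12, 12.9 and 13.6 CPM and the 3xTg-8M libraries 3.95, 4.33, 4.01 and 3.8 CPM. WT-D held 12.3, 9.84, 10.4 and 11.3 CPM beside 4.45, 4.09, 3.96 and 5.46 CPM in 3xTg-D. WT-S held 13.7, 12.3 and 12.4 CPM beside 3.85, 3.18, 4.97 and 3.97 CPM in 3xTg-S. No 3xTg library reached the lowest WT library. Pcdhgb6 fell by 1.65 ± 0.10 at 8 months (3.13-fold lower, edgeR adjusted p = 3.33e-06), by 1.29 ± 0.13 between vehicle groups (2.44-fold, adjusted p = 0.000156) and by 1.69 ± 0.15 between inhibitor groups (3.22-fold, adjusted p = 7.04e-05), and it too was called under every alternative. Of its windows of 75 bases, 6.34% also occur in another gene, most often Pcdhgb5, which had log2 differences of -0.47, -0.20 and -0.49 and was not called.

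Pcdhga4 was the gamma member that rose. It held 5.42, 4.82, 6.27 and 6.78 CPM in WT-8M and 15.5, 12.2, 12.7 and 9.81 CPM in 3xTg-8M. WT-D held 7.02, 7.7, 5.21 and 4.8 CPM and 3xTg-D 10.8, 13.6, 9.11 and 12.5 CPM. All WT libraries lay below all 3xTg libraries of the series, the closest being WT-S replicate 3 at 8.08 and 3xTg-S replicate 2 at 8.5 CPM. The log2 fold change was 1.12 ± 0.15 at 8 months (edgeR adjusted p = 0.00172) and 0.90 ± 0.17 between vehicle groups (adjusted p = 0.0211), and 0.69 ± 0.16 between inhibitor groups, where the adjusted p of 0.0713 missed the threshold. Between vehicle groups the call was lost, at 0.79 to 0.86, without WT-D replicate 3 or 4 or 3xTg-D replicate 2 or 4, and between inhibitor groups Pcdhga4 was called without 3xTg-S replicate 2. Pcdhga3 was called in 3xTg-S against WT-D alone, by -0.63 ± 0.14 (adjusted p = 0.0314), with differences of -0.36, -0.41 and -0.52 in the separate comparisons, and its call was lost, at -0.48 to -0.62, without WT-D replicate 1 or 3xTg-S replicate 1, 2 or 4. Pcdhgb2, singled out after its values were seen, lay just outside, with -0.72 ± 0.16 (adjusted p = 0.0585) between vehicle groups and -0.85 ± 0.19 (adjusted p = 0.0589) between inhibitor groups.

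Pcdha9 (chr18:36997880-37187657) was the only alpha member called by the main test. The WT-8M libraries held 3.96, 4.46, 5.6 and 4.68 CPM and the 3xTg-8M libraries 2.52, 2.36, 2.57 and 1.53 CPM. WT-D held 5.22, 5.76, 3.67 and 4.12 CPM and 3xTg-D 2.66, 2.08, 1.83 and 2.34 CPM. In WT-S it held 3.14, 4.66 and 2.07 CPM, and the last of these lay within the 1.75 to 2.89 CPM of 3xTg-S. Pcdha9 fell by 1.02 ± 0.19 at 8 months (2.04-fold lower, edgeR adjusted p = 0.0126) and by 1.08 ± 0.19 between vehicle groups (2.11-fold, adjusted p = 0.0136), against a difference of -0.50 ± 0.27 (adjusted p = 0.579) between inhibitor groups. Without 3xTg-D replicate 2 the vehicle value was -1.05 and no longer called. Pcdha12, the most abundant alternate alpha per length, differed by 0.22, 0.09 and 0.16 and was not called.

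In the beta cluster the called members sat mostly in one run, Pcdhb5 to Pcdhb9. With vehicle, Pcdhb6 stood at 15.5, 11.5, 9.34 and 7.32 CPM in WT-D, whereas 3xTg-D had 5.46, 6.24, 5.44 and 4.32 CPM. It held 16.2, 12.5 and 9.58 CPM in WT-S and 4.75, 4.61, 4.9 and 5.05 CPM in 3xTg-S. The groups did not overlap in either pair, but at 8 months WT-8M replicate 1, at 4.68 CPM beside 9.85, 14.6 and 14.6 in its group, lay within the 3.5 to 5.6 CPM of 3xTg-8M. Pcdhb6 fell by 1.02 ± 0.21 between vehicle groups (edgeR adjusted p = 0.037) and by 1.40 ± 0.17 between inhibitor groups (adjusted p = 0.000906). Between vehicle groups the call was lost without WT-D replicate 1 (-0.79) or 2 or without any 1 of the 3xTg-D libraries (-0.93 to -1.10). At 8 months the difference was -1.21 ± 0.32 (adjusted p = 0.0745). Without WT-8M replicate 1 it was called, but that library was picked out for lying within the 3xTg-8M range, so this call adds no support.

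The neighbours Pcdhb5, Pcdhb7 and Pcdhb8 were called as lower in 3xTg-S than in WT-S. In 3xTg-S against WT-D, Pcdhb5, Pcdhb6 and Pcdhb7 were called as lower too, and Pcdhb9 was called as higher. Pcdhb7, the second most abundant beta member per length, held 24.2, 19.7 and 19.9 CPM in WT-S and 9.07, 13.1, 11.6 and 13.4 CPM in 3xTg-S. It fell by 0.85 ± 0.14 there (edgeR adjusted p = 0.00753) and by 0.50 ± 0.11 in 3xTg-S against WT-D (adjusted p = 0.0395), with differences of -0.44 at 8 months and -0.43 between vehicle groups. Pcdhb8 fell by 0.88 ± 0.18 (adjusted p = 0.0338) and Pcdhb5 by 0.60 ± 0.12 (adjusted p = 0.0355), and their calls were lost in 5 and 6 of 12 alternatives, among them those without 3xTg-S replicate 1 (-0.87 and -0.55), 3xTg-S replicate 4 (-0.94 and -0.66) or WT-S replicate 2 (-0.88 and -0.57). Pcdhb9, the most abundant beta member per length, had the opposite direction to the genes before it. WT-D libraries had 19.4, 16.9, 16.4 and 16.9 CPM, whereas 3xTg-D libraries had 24.9, 21.6, 21.5 and 24.9 CPM, a rise of 0.42 ± 0.08 (adjusted p = 0.0284) that was lost in 7 of 13 alternatives, at 0.39 to 0.45, all but 1 of them the removal of a library other than WT-D replicate 1 or 3xTg-D replicate 3.

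Pcdhb1, the first beta gene and the least abundant, rose by 1.74 ± 0.30 in 3xTg-D against WT-D (edgeR adjusted p = 0.0121). WT-D libraries had 0.464, 0.67, 0.467 and 0.431 CPM, whereas 3xTg-D libraries had 1.15, 1.36, 2.31 and 1.91 CPM, which rests on at most 39 counts in a library. The differences were 0.96 ± 0.35 at 8 months (adjusted p = 0.19) and 0.32 ± 0.32 between inhibitor groups (adjusted p = 0.8). Pcdhb15 fell at 8 months alone, by 0.64 ± 0.13 (adjusted p = 0.0217), from 5.87, 5.54, 5.23 and 6.49 CPM to 4.02, 3.8, 3.71 and 3.2 CPM, and differed by -0.03 and -0.22 in the other separate comparisons. Its call was lost, at -0.59 to -0.69, without WT-8M replicate 4 or 3xTg-8M replicate 1, 2 or 3. Pcdhb16 was called in 3xTg-S against WT-D alone, by -0.57 ± 0.14 (adjusted p = 0.0479), with -0.36, -0.39 and -0.37 in the separate comparisons, and was called in 7 of 13 alternatives. Whether the strain difference of any member differed between ages was not tested.

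**Figure D3:**
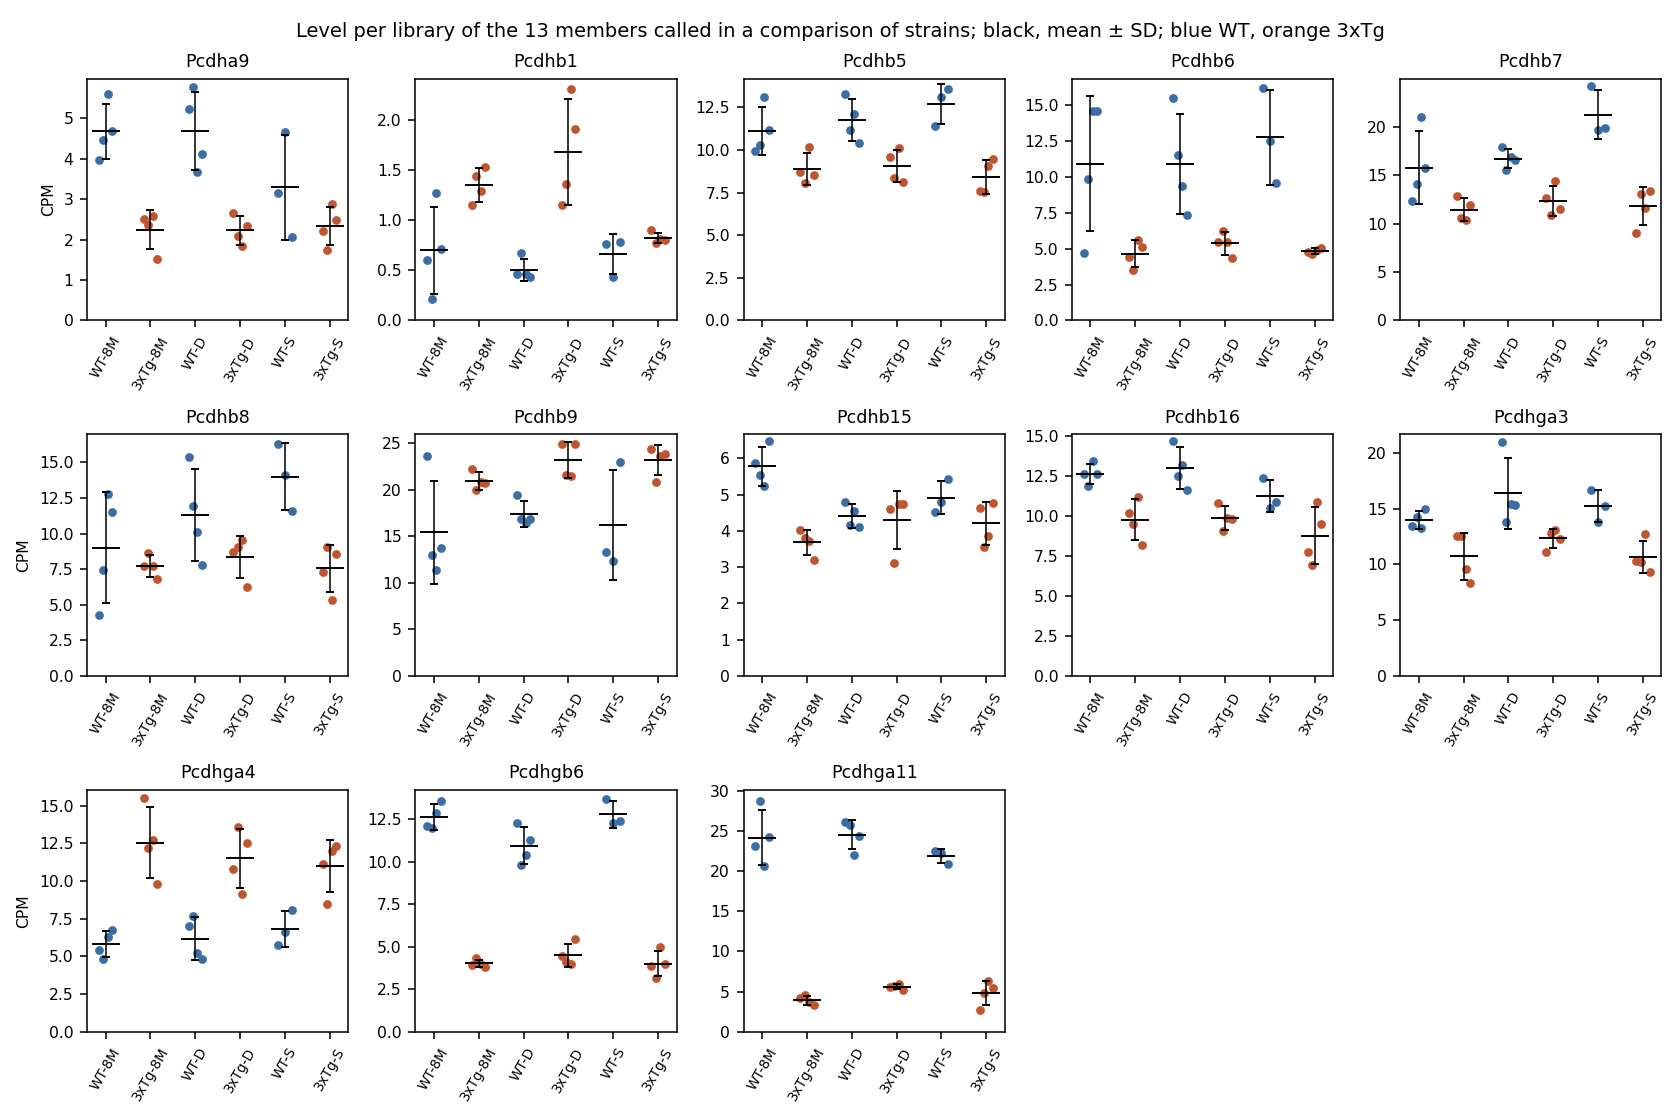
Level in CPM (vertical axes from 0) of the 13 members called in a comparison of strains, one point for each library in the 6 groups, with the group mean and SD in black. Pcdhga11, Pcdhgb6 and Pcdhga4 separate all WT from all 3xTg libraries, while Pcdhb6, Pcdhb8 and Pcdhb9 spread more among the WT libraries than among the 3xTg libraries.

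None of the 5 C-type members was called in any of the 7 comparisons by edgeR or by DESeq2, and 1 (Pcdhac2) had an unadjusted p under 0.05 at 8 months and 1 (Pcdhgc3) between inhibitor groups. Pcdhgc5, the most abundant member, held 70.4 to 78.7 CPM in WT-8M and 58.7 to 82.6 CPM in 3xTg-8M, a log2 difference of -0.003 ± 0.10, and the difference was -0.004 ± 0.10 between vehicle groups and -0.07 ± 0.12 between inhibitor groups. Pcdhgc3 differed by -0.12 ± 0.09, -0.002 ± 0.10 and -0.31 ± 0.11 in the same order. Pcdhac2, known for the spacing of serotonergic axons, held 31.7 to 33.2 CPM in WT-8M and 29.8, 28.0, 28.5 and 21.7 CPM in 3xTg-8M, a difference of -0.26 ± 0.09 (edgeR adjusted p = 0.169), in which the lowest value belongs to 3xTg-8M replicate 4. Pcdhgc4, known for interneuron survival, differed by 0.04, 0.17 and 0.02, and Pcdhac1 by -0.22, -0.21 and -0.08.

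The summed level of each cluster, its called members included, was set side by side between strains. The alpha members summed to 71.6 ± 1.89 CPM (SD, n = 4) in WT-8M and 61.2 ± 5.73 (n = 4) in 3xTg-8M, to 71.3 ± 0.843 in WT-D and 65.3 ± 3.5 in 3xTg-D, and to 69 ± 2.09 (n = 3) in WT-S and 64.7 ± 12.7 in 3xTg-S. The gamma members summed to 342 ± 18.1 against 295 ± 39.1 CPM at 8 months, 345 ± 26.6 against 312 ± 25.6 with vehicle and 352 ± 14.5 against 297 ± 45.1 with inhibitor. Beta sums were 221 ± 19.3 against 201 ± 14.8, 221 ± 27.9 against 209 ± 4.37 and 231 ± 13.2 against 193 ± 6.41 CPM. The 3xTg mean was the lower in each pair. For alpha with inhibitor this rested on 3xTg-S replicate 2, at 47.3 CPM. The rest of its group had 64.2, 77 and 70.2 CPM, and WT-S had 66.9 to 71.1 CPM. The lowest gamma sums, 237 CPM each, were those of 3xTg-8M replicate 4 and 3xTg-S replicate 2. The C-type genes alone summed to 176 ± 5.1 CPM in WT-8M and 165 ± 23.7 in 3xTg-8M. With vehicle they had 174 ± 11.8 CPM (WT-D) and 173 ± 21.1 CPM (3xTg-D), and with inhibitor 185 ± 10.8 CPM (WT-S) and 166 ± 29.7 CPM (3xTg-S).

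**Figure D4:**
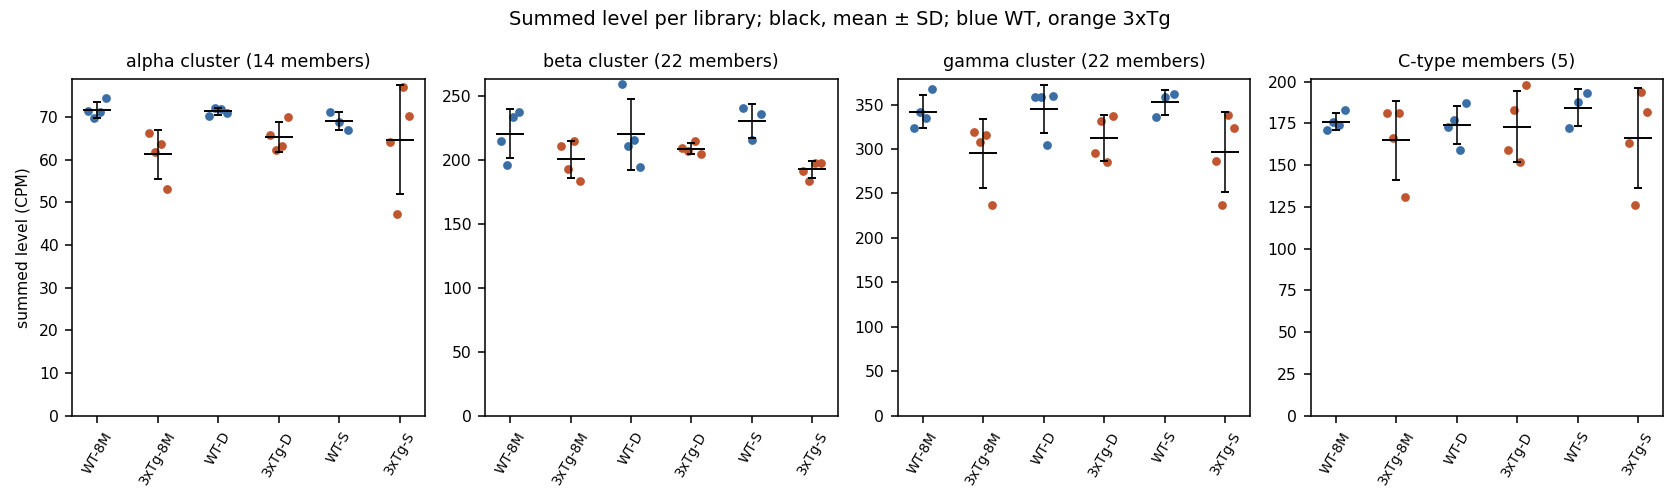
Summed level in CPM (vertical axes from 0) of the members of each cluster and of the C-type members, one point for each library, with the group mean and SD in black. The lowest gamma sums, 237 CPM, are 3xTg-8M replicate 4 and 3xTg-S replicate 2.

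Whether SCD inhibition altered the members was asked within each strain. In 3xTg-S against 3xTg-D edgeR called 0 of 56 members and 0 of 15530 genes (0%), and DESeq2 called 0 members. At an unadjusted p under 0.05 there were 7 members, beside 11.2% of all genes. In WT-S against WT-D edgeR and DESeq2 called 0 members, and edgeR 0 of 15724 genes (0%), with 7 members at an unadjusted p under 0.05 beside 3.42% of all genes. The interaction of strain and inhibitor likewise gave 0 called members by either tool and 0 of 16262 genes (0%), with 7 members under that unadjusted p beside 2.32% of all genes.

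None of the 13 members called between strains was called between inhibitor and vehicle. Pcdhga11 had log2 differences of -0.23 in 3xTg-S against 3xTg-D and -0.16 in WT-S against WT-D, Pcdhgb6 of -0.18 and 0.23, and Pcdhga4 of -0.07 and 0.14. Pcdhb1 had the lowest unadjusted p in 3xTg-S against 3xTg-D (0.00201, edgeR adjusted p = 0.378). It held 1.15, 1.36, 2.31 and 1.91 CPM with vehicle and 0.901, 0.779, 0.816 and 0.808 CPM with inhibitor, so the groups did not overlap, a difference of -1.03 ± 0.27. Pcdhb7 was the member with the lowest unadjusted p in WT-S against WT-D (0.00464, adjusted p = 0.981), at 0.35 ± 0.10. The call of Pcdhb1 between vehicle groups used the same 3xTg-D libraries. Likewise the call of Pcdhb7 between inhibitor groups used the same WT-S libraries. Neither inhibitor difference is therefore separate from the strain call of that gene. In the interaction Pcdhb1 (-1.41 ± 0.44) and, named for their values, Pcdhb2 (-0.70 ± 0.20) and Pcdhb3 (-0.52 ± 0.15) had an unadjusted p under 0.01, and their adjusted p was 1.

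Signs leaned one way in the 3xTg strain, where 43 of 56 members (76.8%) were lower with inhibitor, beside 50.5% of all genes. The members' median was -0.09, beside -0.002 for all genes. Without 3xTg-S replicate 2 these were 33 members and -0.05, and after removal of the trend with transcript length and GC content 36 members and -0.07. In the same comparison all 11 tested non-clustered protocadherins had negative differences, with a median of -0.10, and the median of the 11 CTCF and cohesin genes was also -0.10. In WT 31 of 56 members (55.4%) were lower, beside 49.4% of all genes. The members' median there was -0.02, beside -0.12 for the non-clustered protocadherins and -0.09 for CTCF and cohesin. For a member the median SE was 0.14 log2 units in 3xTg and 0.15 in WT, which sets the size of difference these groups could show.

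**Figure D5:**
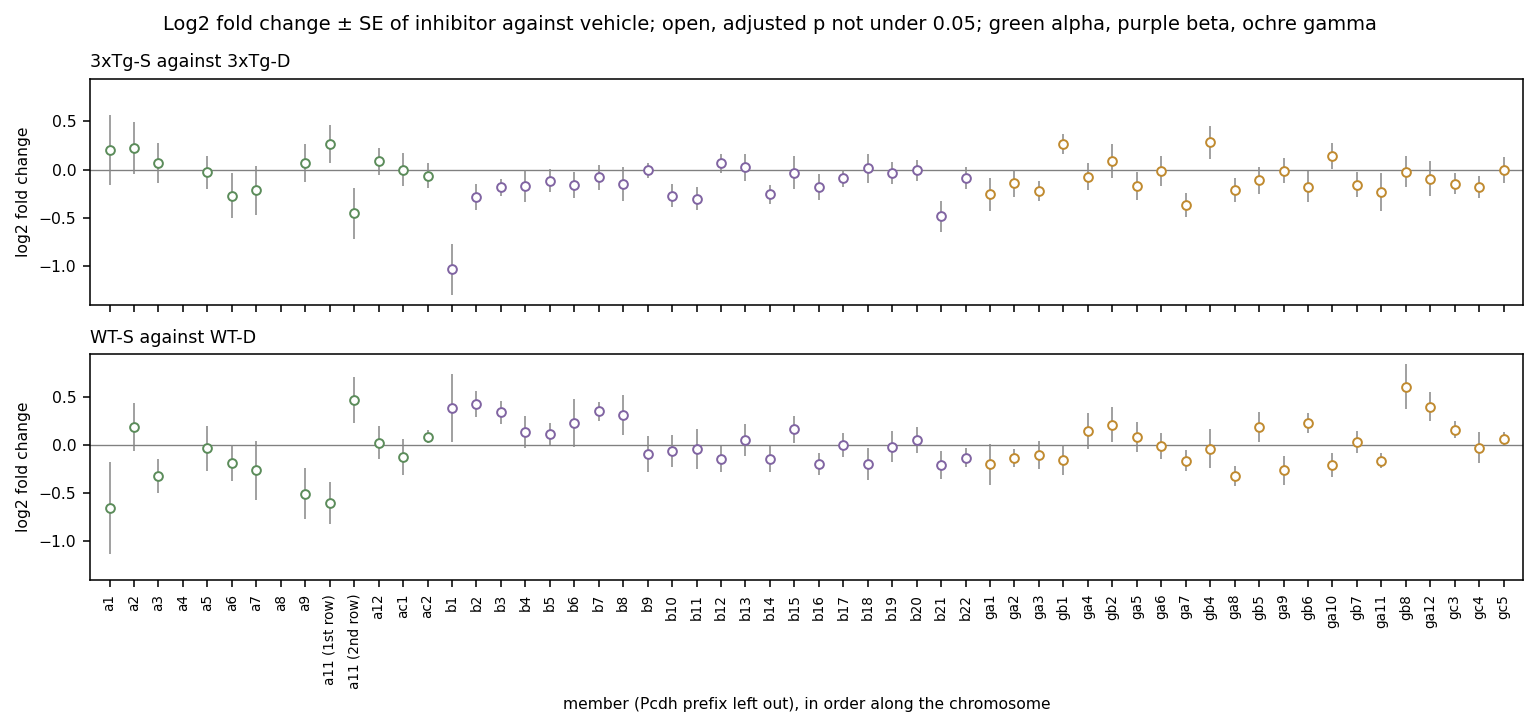
Log2 fold change of inhibitor over vehicle (vertical axis, with SE) for each tested member in order along the chromosome, in 3xTg and in WT mice; open points had an adjusted p at or above 0.05. No member is filled in either panel, and Pcdhb1 in 3xTg is the lowest point at -1.03.

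The genes that act on the clusters were examined beside them. Of CTCF and cohesin genes 11 of 11 were tested and 0 were called by edgeR or DESeq2 in any of the 7 comparisons, with 0 to 3 at an unadjusted p under 0.05 in 6 of them. In 3xTg-S against 3xTg-D, 5 of the 11 had such a p, beside 11.2% of all genes, and Pds5a, Wapl, Nipbl, Smc3 and Stag2, named for these values, were all lower with inhibitor, by -0.13 to -0.19 (edgeR adjusted p = 0.378 to 0.43). Of genes for DNA methylation and repressive chromatin 13 or 14 of 14 were tested and 0 were called by either tool, with 0 to 3 under that p. Among 18 cytoplasmic partners edgeR called 1, Ret, a receptor tyrosine kinase that binds clustered protocadherins, which rose by 1.01 ± 0.15 in 3xTg-D against WT-D (edgeR adjusted p = 0.00375) and by 0.84 ± 0.14 in 3xTg-S against WT-D (adjusted p = 0.00868). Ret differed by 0.58 ± 0.16 at 8 months (adjusted p = 0.0763) and by 0.64 ± 0.17 between inhibitor groups (adjusted p = 0.109). DESeq2 called 1 partner at 8 months, 1 between vehicle groups and 2 in 3xTg-S against WT-D. Of 12 non-clustered protocadherins 11 were tested and 0 were called by either tool, with 0 to 3 at an unadjusted p under 0.05.

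The genes on either side of the clusters were tested as well. The 4 nearest tested genes before the alpha cluster (Dnd1, Hars, Hars2 and Zmat2) and the 4 after the gamma cluster (Diaph1, Hdac3, Rell2 and Fchsd1) had log2 differences between -0.18 and 0.72 over the comparisons that tested them, and none was called. Diaph1, which encodes an actin-nucleating formin and starts 1.73 kb past the gamma cluster, differed by 0.26 ± 0.08 at 8 months (edgeR adjusted p = 0.108). Cd14, a monocyte and microglial receptor gene 203 kb before the alpha cluster, was the only one of 24 tested genes around the clusters to be called. It was higher by 0.91 ± 0.20 at 8 months (adjusted p = 0.0353) and by 1.00 ± 0.19 between inhibitor groups (adjusted p = 0.0206), and also in 3xTg-S against WT-D. Between vehicle groups it was higher by 1.41 ± 0.36 and missed the threshold (adjusted p = 0.0939).

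Markers of cell types moved with some of these comparisons. The 10 neuron markers summed to 9157 to 9996 CPM in 3xTg-8M against 9559 to 10608 in WT-8M. With vehicle they summed to 9174 to 10073 CPM in 3xTg-D, below the 10139 to 10636 of WT-D without overlap. With inhibitor they summed to 8808 to 10190 CPM in 3xTg-S against 9710 to 10780 in WT-S. The 3xTg mean was the lower in each pair. By edgeR 0 of 10 were called in any comparison, with 1 to 3 at an unadjusted p under 0.05 between strains. DESeq2 called 1 in 3xTg-S against WT-D. The 8 oligodendrocyte markers summed to 6025 to 6754 CPM in 3xTg-S, above the 3957 to 5078 of WT-S and the 4282 to 5467 of WT-D, and 3 and 4 of 8 were called as higher against these groups. The 3726 to 5980 CPM of 3xTg-D also lay below 3xTg-S. In 3xTg-S against 3xTg-D the 8 markers had log2 differences of 0.157 to 0.341. There edgeR called 0 of them, with 5 at an unadjusted p under 0.05. At 8 months and between vehicle groups 0 of 8 were called by edgeR or DESeq2 and the ranges overlapped. The 8 microglia markers summed to 381 to 470 CPM in 3xTg-8M against 333 to 389 in WT-8M, to 325 to 521 in 3xTg-D against 337 to 383 in WT-D and to 408 to 514 in 3xTg-S against 353 to 375 in WT-S. Of these 8, edgeR called 0 at 8 months (3 at an unadjusted p under 0.05, and 1 called by DESeq2), 1 between vehicle groups, 2 between inhibitor groups and 3 in 3xTg-S against WT-D, all higher in 3xTg. No marker in these lists was at 0 in every library. The part of cell composition in the members' differences was not tested.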

How the data were processed

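The authors trimmed single-end reads with Trimmomatic 0.35, aligned them to GRCm38 with STAR 2.5.1b and deposited raw gene counts for 23 libraries (Gencode M23 names), from polyA-selected RNA. The strand setting was not given in the sources used here. The members and gene lists were chosen with earlier results of these data known. Counts were tested pairwise with edgeR 4.0.16 (R 4.3.3; TMM, filterByExpr, quasi-likelihood F test, Benjamini-Hochberg over all genes, called at adjusted p under 0.05), which was checked on simulated data. SE is the log2 fold change over the root of F. Levels are TMM-scaled CPM, and own bases and shared 75-base windows came from the exons of a Gencode M21 annotation, in which all 58 members had the same coordinates. Alternatives were DESeq2 1.42.0 size factors or likelihood ratio test, no filter, the study's unadjusted p under 0.01, one fit over 15 libraries, removal of a length and GC trend, and leaving out each library. Named members were those called anywhere, the 5 C-type members and the 2 most abundant per length in each cluster. Other genes were named from the lists where called or next to the clusters. Further members and genes outside these rules were named after their values were seen, or for their place or sequence. Each library carries a serial number of its own in the labels, and the study counts mice per group. Replicate numbers follow sample order and pair nothing. One item of the strain description is not reported here.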

Additional observations from a re-analysis of the deposited data

Results flagged for a closer look

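In 110 sets of 4 libraries (the 3 cluster sums and the 19 named members), 4 had a lowest or highest library far from the rest, and chance gives about 1 in 20. The gamma sum of 3xTg-8M replicate 4 was 237 CPM, against 308 to 319 in the rest of its group. The gamma sum of WT-D replicate 3 was 305 CPM, against 358 to 360. Pcdhb1 in WT-D replicate 2 was at 0.67 CPM, above the 0.431 to 0.467 of its group and below the 3xTg-D libraries. Pcdhb15 in 3xTg-D replicate 2 was at 3.12 CPM, against 4.6 to 4.75. Their origin was not tested.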

How the results depend on the processing

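No paired analysis was possible because the groups share no replicate numbers in the labels, which give each library a serial number of its own, and what consecutive serial numbers share is not stated. No called log2 fold change reversed in any alternative. The number of called members was 5 in 3xTg-8M against WT-8M, and 9 without the filter, 11 at an unadjusted p under 0.01, and 4 to 8 when a library was left out. It was 7 in 3xTg-D against WT-D, and 12 without the filter, 14 at that p, 11 with the length and GC trend removed and 3 to 7 without a library. It was 6 in 3xTg-S against WT-S, and 14 without the filter, 12 at that p and 4 to 7 without a library. It was 10 in 3xTg-S against WT-D, and 3 to 9 without a library. The 11, 14 and 12 members at that p were 19.6%, 25% and 21.4% of those tested, beside 6.88%, 4.95% and 4.14% of all genes. At that p 1 member (1.79%) passed in 3xTg-S against 3xTg-D, beside 2.52% of all genes. In WT-S against WT-D 1 member (1.79%) passed, beside 0.375%, and in the interaction 3 (5.36%), beside 0.351%. In the other alternatives of these last comparisons the count was 0. Of 353 alternative values of called log2 fold changes 289 stayed called and 64 did not. The 18 cluster sums moved by less than 1 SD without scaling. Causes of these changes were not tested, apart from the looser p. Depth limits Pcdhb1 and the low alpha members most.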

Other observations

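Some members spread widely among WT libraries and little among 3xTg libraries, a pattern picked out after the values were seen. Pcdhgb8, a gamma B member next to Pcdhga11, held 0.692, 7.34, 13.6 and 7.95 CPM in WT-8M, 7.54, 7.57, 6.54 and 6.77 in WT-D, and 13.3, 12.8 and 6.15 in WT-S. WT-8M replicate 1, the deepest library, had 25 Pcdhgb8 counts, beside 102 in replicate 2 of that group at less than its depth. In the 12 3xTg libraries Pcdhgb8 stayed between 3.67 and 7.4 CPM. Its SD within groups on the log2 scale was 1.16 in WT and 0.29 in 3xTg, while the medians over the 56 tested members were 0.23 and 0.22.

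Pcdhb6, Pcdhb8 and Pcdhb9 had the same shape, with SDs of 0.58, 0.52 and 0.38 in WT and 0.21, 0.26 and 0.10 in 3xTg. WT-8M replicate 1 had the lowest Pcdhb6 (4.68 CPM), Pcdhb7 (12.3) and Pcdhb8 (4.29) of the 11 WT libraries and the highest Pcdhb9 (23.6). WT-S replicate 3 held 23 CPM of Pcdhb9, beside 13.3 and 12.3 in its group. The Pcdhb6, Pcdhb7 and Pcdhb9 values of WT-8M replicate 1 lay within the ranges of the 3xTg libraries. These ranges were 3.5 to 6.24, 9.07 to 14.4 and 20 to 24.9 CPM. The Pcdhb8 value of WT-8M replicate 1 lay below the 5.34 to 9.58 CPM of the 3xTg libraries. Its Pcdhga11 (23.1 CPM) and Pcdhgb6 (12.1 CPM) lay with the WT libraries. Without WT-8M replicate 1, Pcdhb6 and Pcdhb9 were called between the strains at 8 months. That library was singled out for its values of these genes, so the calls without it add no support for a strain difference.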
